A study of Mus musculus with 32 samples.

Results

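The translation initiation and elongation factors of the mouse were described in skeletal muscle, heart, liver and brown adipose tissue (BAT), in mice labelled as Smim30 knockouts and in wild-type mice. The members are the protein-coding genes whose symbol in GENCODE mouse release M21 starts with Eif or Eef, without Eif2ak2. All 68 were in the table, of 51510 genes in all, and 65 passed the filter of at least 1 TPM on average that each test required. The other members were Eif4e1b, Eif5a2 and Eef1akmt3. TPM is an abundance per transcript length, scaled to the same sum in every library, and the TPM of a gene is the sum over its transcripts.

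Initiation factors bring the first tRNA and the small ribosomal subunit to the cap of an mRNA, find its start codon and join the large subunit. Elongation factors then deliver each further tRNA and move the ribosome along. Initiation is held back by kinases that phosphorylate eIF2 and by proteins that bind the cap-binding factor eIF4E, and elongation by a kinase that phosphorylates eEF2. Several factors exist as pairs of closely related genes, of which the best known for tissue differences is Eef1a1 with Eef1a2. Eef1a1 is made in most cells, while Eef1a2 is made mainly in adult muscle, heart and neurons.

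The Mut groups were male mice of a Smim30 knockout line and the WT groups were male wild-type mice, all labelled C57BL/6J, with 4 libraries from each of the 4 tissues in each genotype, 32 in all. Smim30 encodes a small membrane protein. The age of the mice, the kind of allele and any treatment were not given in the sources used here. Per the labels, total RNA was made into strand-specific libraries, and the 4 mice of a tissue were separate animals, so p-values measure the spread between these libraries.

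Sequencing depth is unknown, since TPM holds no read numbers, and precision was read from replicates alone. Mitochondrially encoded RNA, counted from genes on the mitochondrial chromosome alone, took 10.1% to 54.5% of the TPM of a library, most in heart and least in liver. Markers of each tissue's main cell type were highest in the labelled tissue, and outside it hepatocyte, skeletal fibre, cardiomyocyte and brown adipocyte markers lay at 0.975% to 2.65% of their WT level at home. Smim30 RNA remained in every Mut library. It was lower without overlap in heart, at 17.8 to 27.4 TPM in Mut and 32.7 to 37.6 TPM in WT, and in muscle, at 24.3 to 27.3 TPM in Mut and 32.9 to 35.7 TPM in WT. The genotypes overlapped in BAT, at 27.3 to 33.0 TPM in Mut and 23.5 to 32.3 TPM in WT, and in liver, at 17.3 to 25.6 TPM in Mut and 18.6 to 26.4 TPM in WT. The genotype labels could thus not be checked from this RNA in every tissue. Summed atrial markers (Myl7, Myl4, Sln and Nppa) were at 22.2 to 87.6 TPM in Mut hearts and 326 to 3285 TPM in WT hearts. Summed erythroid markers averaged higher in Mut in all 4 tissues. In BAT the genotypes did not overlap, at 2272 to 3580 TPM in Mut and 1227 to 2215 TPM in WT. They overlapped in liver, at 610 to 2347 TPM in Mut and 661 to 880 TPM in WT. In heart and muscle 1 library stood far above the rest. Mut heart replicate 4 was at 14261 TPM, the other Mut hearts at 1613 to 3608 TPM and WT hearts at 1685 to 3393 TPM. Mut muscle replicate 4 was at 1666 TPM, the other Mut muscles at 347 to 453 TPM and WT muscles at 309 to 428 TPM. In bulk tissue, fewer cells of a type and less RNA per cell cannot be told apart.

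The promoters of the Eef1a pair are shown because the share of this pair differed most between tissues. Each line gives the 250 bases before the annotated start, 5′ to 3′ on the strand of the gene, from RefSeq on GRCm38.p6. Capitals mark GC boxes (GGGCGG, read on both strands). The Eef1a1 window is chr9:78481725-78481974 and the Eef1a2 window is chr2:181157016-181157265, both on the minus strand.
Eef1a1: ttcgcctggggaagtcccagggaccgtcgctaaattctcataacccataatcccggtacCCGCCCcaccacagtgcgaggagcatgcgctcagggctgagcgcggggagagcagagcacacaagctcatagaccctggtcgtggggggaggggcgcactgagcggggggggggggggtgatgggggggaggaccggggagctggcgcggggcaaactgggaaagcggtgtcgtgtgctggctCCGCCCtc
Eef1a2: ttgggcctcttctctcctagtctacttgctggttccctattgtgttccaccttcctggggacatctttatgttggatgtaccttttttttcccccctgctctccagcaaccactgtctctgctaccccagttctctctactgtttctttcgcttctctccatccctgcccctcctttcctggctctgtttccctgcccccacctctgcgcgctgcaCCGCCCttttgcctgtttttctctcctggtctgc
The Eef1a1 window held 2 GC boxes and 68.0% G or C, and the Eef1a2 window held 1 GC box and 54.0% G or C. Neither held TATAAA or the E-box CANNTG. Of 32851 RefSeq promoter windows of this length, 32.7% held GGGCGG, 12.4% held TATAAA and 66.2% held CANNTG on either strand. The windows end within 1 base of the 5′ end of each gene's most abundant transcript.

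Eef1a1 (chromosome 9, 78478449 to 78489151) and Eef1a2 (chromosome 2, 181147653 to 181157014, GRCm38) each encode the factor that carries aminoacyl-tRNA to the ribosome. Their order across tissues was nearly opposite. In liver, Eef1a1 was at 3326, 3122, 2909 and 3070 TPM in the 4 Mut libraries and at 3275, 3533, 3821 and 3845 TPM in the 4 WT libraries. In BAT it was at 1886, 1741, 1772 and 1934 TPM in Mut and at 1482, 1542, 1837 and 1714 TPM in WT. The genotypes overlapped in both tissues, and every liver library lay above every BAT library. In heart, Eef1a1 was at 423, 342, 471 and 441 TPM in Mut and at 490, 526, 494 and 663 TPM in WT. In muscle it was at 336, 354, 333 and 327 TPM in Mut and at 311, 325, 292 and 313 TPM in WT. All 4 Mut hearts lay below all 4 WT hearts, and all 4 Mut muscles lay just above all 4 WT muscles.

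Eef1a2 was highest in muscle, at 571, 710, 690 and 657 TPM in Mut and at 607, 607, 648 and 606 TPM in WT. In heart it was at 346, 266, 390 and 385 TPM in Mut and at 368, 410, 355 and 404 TPM in WT. The genotypes overlapped in both, and the lowest muscle library lay above the highest heart library. In liver, Eef1a2 was at 17.3, 14.6, 13.7 and 14.2 TPM in Mut and at 15.6, 15.1, 14.8 and 14.3 TPM in WT. In BAT it was at 21.6, 25.6, 20.1 and 13.2 TPM in Mut and at 14.4, 13.8, 14.8 and 14.4 TPM in WT. Liver and BAT therefore overlapped, and 3 of the 4 Mut BAT libraries stood above all 4 WT BAT libraries.

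Between WT tissues, Eef1a1 differed in all 6 pairs, with log2 differences between 0.80 (SE 0.10) for heart minus muscle and 3.54 (SE 0.10) for liver minus muscle, on log2(TPM + 1). The limma adjusted p was 1.6e-06 for the smallest of these differences. Eef1a2 was lower in WT BAT than in WT muscle by a log2 difference of -5.33 (SE 0.06) and lower in WT heart than in WT muscle by -0.68 (SE 0.06), with adjusted p of 1.1e-19 and 4.0e-08. WT liver minus WT BAT was 0.05 (SE 0.06, adjusted p = 0.46), and its sign depended on how libraries were scaled. The differences between all other pairs of tissues kept their direction and their call under each alternative tried, for both genes, though their sizes moved. Eef1a1 ran from 0.30 to 1.20 for heart minus muscle and from 0.45 to 1.20 for liver minus BAT, and Eef1a2 from -0.93 to -0.28 for heart minus muscle.

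A share of the Eef1a pair does not depend on how libraries are scaled. Eef1a2 made up 66.0% ± 2.05 of Eef1a1 plus Eef1a2 in Mut muscle and 66.5% ± 1.68 in WT muscle (SD, n = 4 in each group). In heart the share was 45.2% ± 1.17 in Mut and 41.6% ± 2.62 in WT. In BAT it was 1.10% ± 0.317 in Mut and 0.870% ± 0.0701 in WT, and in liver 0.477% ± 0.0270 in Mut and 0.413% ± 0.0458 in WT. The 4 tissues did not overlap in either genotype. Mut minus WT was 0.227 percentage points in BAT, 3.56 in heart, 0.0642 in liver and -0.542 in muscle. The exact two-sided permutation test gave p = 0.2, 0.0571, 0.114 and 0.771 in that order, and 0.267, 0.229, 0.229 and 0.771 after Benjamini-Hochberg adjustment over the 4 tissues. The smallest p that 4 against 4 libraries allow is 0.0286.

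**Figure D1:**
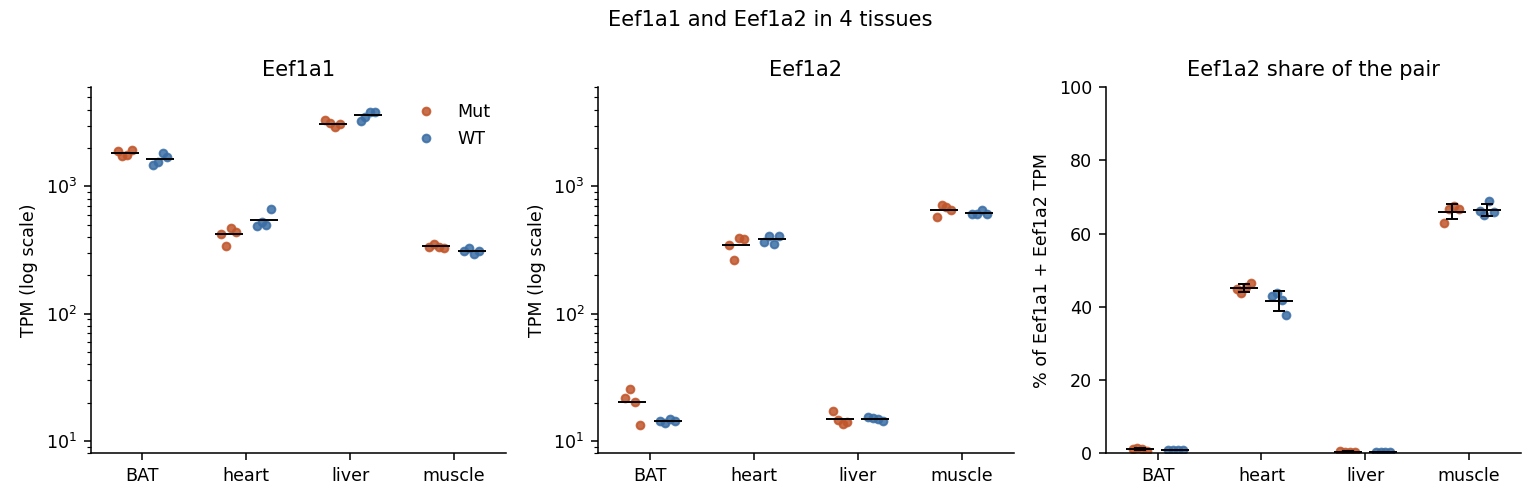
Eef1a1 TPM, Eef1a2 TPM and the Eef1a2 share of the pair (percent) in each library, with Mut left of WT in each tissue; both TPM axes are logarithmic, bars mark group means, and error bars on the share are SD (n = 4). Liver and BAT libraries hold nearly all of the pair as Eef1a1, hearts hold 37.9% to 46.6% as Eef1a2, and muscles 62.9% to 69.0%.

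The low Eef1a2 in liver and BAT was set beside striated muscle markers in the same libraries. Skeletal fibre markers were at 1.60% of their WT muscle level in Mut liver and 1.54% in WT liver, and cardiomyocyte markers at 1.65% and 1.58% of their WT heart level in Mut and WT liver. Eef1a2 at those percents of its WT muscle and WT heart levels would be 16.2 TPM in Mut liver and 15.6 TPM in WT liver, against 14.9 TPM measured in each. In BAT the same sum gives 19.7 TPM in Mut and 14.8 TPM in WT, against 20.2 TPM measured in Mut and 14.3 TPM in WT. Skeletal fibre markers were at 1606, 2425, 1652 and 952 TPM in the 4 Mut BAT libraries and at 1053 to 1153 TPM in WT BAT. Their order in the Mut BAT libraries was that of Eef1a2 except between replicates 1 and 3. Their part in the Eef1a2 levels was not tested.

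Shares of the other related pairs set the tissues apart as well. Of the eIF4A helicases, which unwind the mRNA leader, Eif4a2 made up 77.1% ± 0.726 in Mut muscle and 77.2% ± 1.49 in WT muscle, against 44.7% ± 1.06 in Mut BAT and 48.3% ± 7.22 in WT BAT (SD, n = 4). Heart was at 69.5% ± 5.04 in Mut and 69.1% ± 0.431 in WT, and liver at 54.0% ± 0.258 in Mut and 56.8% ± 4.21 in WT. Liver and BAT were not separated in WT, where BAT ran from 41.6% to 54.9% and liver from 53.1% to 62.5%. Reads of Eif4a1 can be shared with processed copies of that gene, so its side of the ratio is less certain. The same holds for Eef1a1, for Eif1a with Eif1ax, for Eif3j1 with Eif3j2, and for Eif2s3x with its Y-linked copy Eif2s3y.

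Eif4e3, a relative of the main cap-binding protein Eif4e, made up 46.3% of the pair in Mut BAT and 49.0% in WT BAT. In the other tissues it made up 12.6% to 19.9% in Mut and 11.0% to 22.4% in WT, lowest in liver. Of the eIF4E inhibitors, Eif4ebp2 made up 19.8% of Eif4ebp1 plus Eif4ebp2 in Mut BAT and 21.5% in WT BAT, and 71.5% in Mut muscle and 70.9% in WT muscle. Heart lay between them, at 37.2% in Mut and 34.5% in WT, and liver was near muscle, at 70.3% in Mut and 67.9% in WT. Eif4g3, the second scaffold on which the cap-binding complex is built, made up 19.9% ± 1.75 of Eif4g1 plus Eif4g3 in Mut muscle and 17.9% ± 0.258 in WT muscle, and under 10% in every library of the other tissues. Eif1b stayed between 4.05% and 6.62% of Eif1 plus Eif1b, and Eif2s3y between 53.3% and 60.4% of Eif2s3x plus Eif2s3y, as group means.

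**Figure D2:**
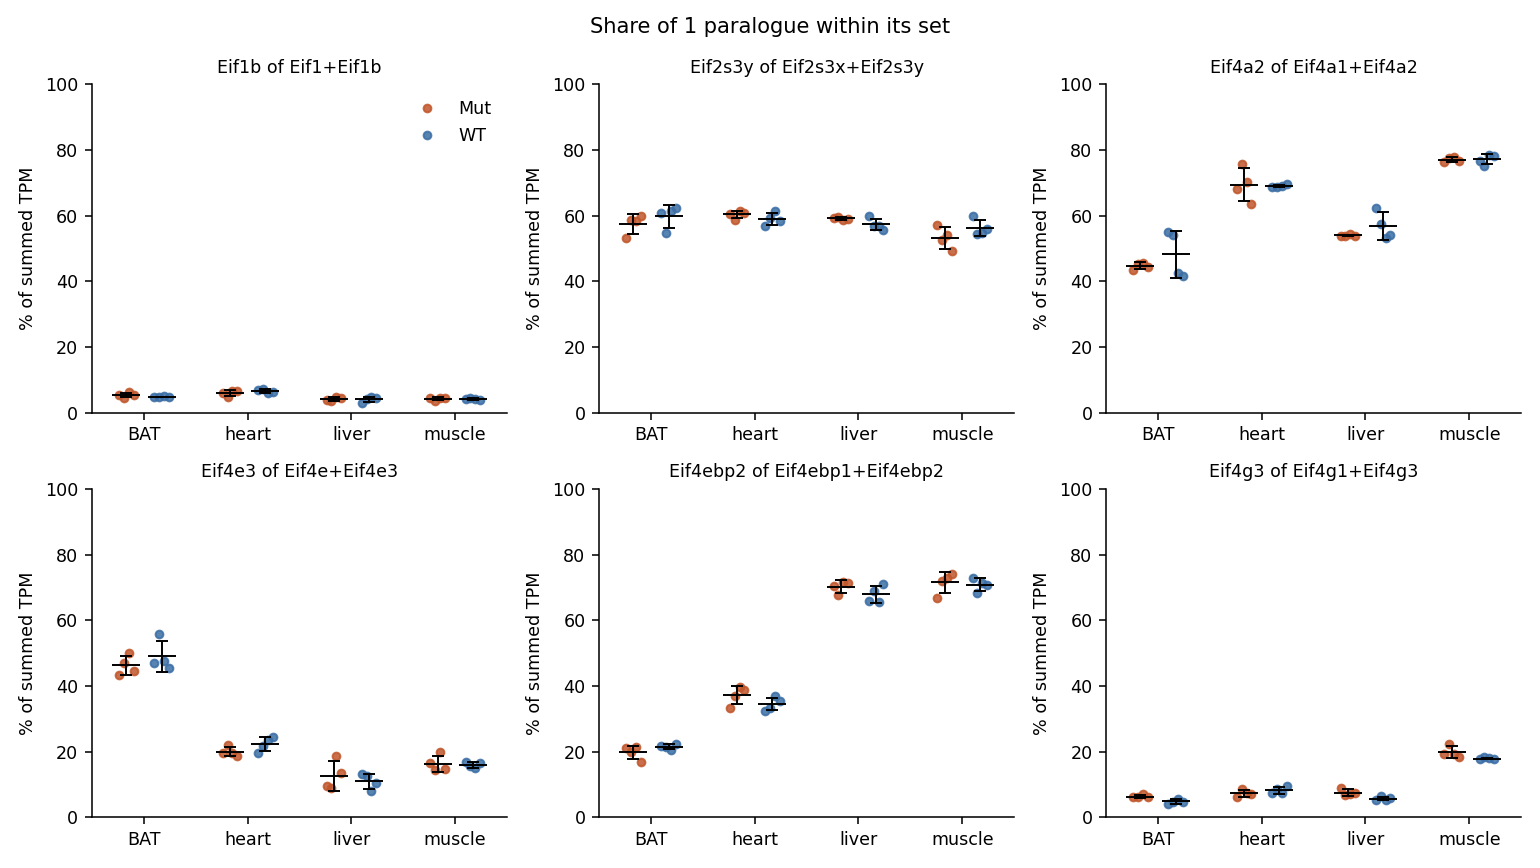
Share (percent) of the named gene in its related pair in each library, by tissue, with Mut left of WT; points are libraries and bars are mean ± SD (n = 4). Eif4g3 stands highest in muscle, Eif4e3 highest in BAT and Eif4ebp2 lowest in BAT, while Eif1b and Eif2s3y cover narrow ranges.

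Levels between tissues depended on how libraries were scaled. In TPM, 35 of the 65 members were highest in WT muscle, 19 in WT liver, 9 in WT BAT and 2 in WT heart. After mitochondrially encoded genes and the 10 most abundant genes were left out and TPM rescaled, the counts were 27, 4, 23 and 11, and under median-ratio scaling 39, 17, 7 and 2. The 10 genes left out were Gm28661, Gm28437, Gm10925, Gm10222, Alb, Gm28438, Apoe, Tpm1, Tnnt3 and Aldoa. All members together summed to 8034 ± 576 TPM in WT liver, 5633 ± 137 in WT muscle, 5359 ± 508 in WT BAT and 4252 ± 314 in WT heart (SD, n = 4). Rescaled, the sums were 10934 in liver, 10394 in muscle, 11751 in BAT and 10371 in heart. Under median-ratio scaling they were 7881 in liver, 6062 in muscle, 5156 in BAT and 4626 in heart. Heart had the lowest mean under all 3 scalings, but rescaled it overlapped muscle and liver. Rescaled libraries ran from 10196.5 to 10796.7 in heart, from 10085.7 to 10651.1 in muscle and from 10148.9 to 11358.2 in liver. The order of the other tissues depended on the scaling.

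In TPM, limma called 38 of 65 members for WT liver minus WT BAT, where 72.4% of all genes tested were called. For liver minus heart it called 49 (background 79.2%), for liver minus muscle 54 (80.1%), for BAT minus heart 44 (63.2%), for BAT minus muscle 49 (73.6%) and for heart minus muscle 47 (64.8%). The split into higher and lower was 28 to 10 for liver minus BAT in TPM (background 37.4% and 35%), 6 to 50 rescaled and 31 to 10 under median-ratio scaling. For liver minus heart it was 39 to 10 (background 46.7% and 32.5%), 10 to 48 and 35 to 18 in the same order of scalings, and for liver minus muscle 21 to 33 (42.9% and 37.2%), 10 to 47 and 15 to 39. For BAT minus heart it was 30 to 14 (39.9% and 23.2%), 25 to 19 and 25 to 22, for BAT minus muscle 14 to 35 (40.9% and 32.7%), 20 to 30 and 13 to 43, and for heart minus muscle 3 to 44 (28.9% and 35.9%), 19 to 26 and 5 to 45. Rescaling moved the median of all genes to -0.56 for liver minus BAT, to -0.55 for liver minus heart and to -0.29 for liver minus muscle, against 0.01, 0.18 and 0.07 in TPM. For BAT minus heart it was 0.01 rescaled against 0.13 in TPM, for BAT minus muscle 0.30 against 0.08, and for heart minus muscle 0.28 against -0.07.

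Of the 65, those called in the same direction under all 3 scalings numbered 16 for liver minus BAT (background 54.8%), 20 for liver minus heart (56.9%), 43 for liver minus muscle (70.2%), 39 for BAT minus heart (55.8%), 43 for BAT minus muscle (62.3%) and 29 for heart minus muscle (48.9%). Of these, 33 were lower in liver than in muscle (background 37.1%), 30 lower in BAT than in muscle (25.6%) and 26 lower in heart than in muscle (20.2%). Eef1a1, Eif2ak3 and Eif4e3 were the 3 members higher in heart than in muscle (background 28.8%).

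In WT muscle 17 members were higher than in each of the other 3 tissues under all 3 scalings (background 12.6%). Among the eIF2 genes, whose product brings the initiator tRNA, Eif2s2 was at 117 ± 19.3 TPM in Mut muscle and 107 ± 5.23 in WT muscle (SD, n = 4), against 32.4 to 43.4 TPM as group means elsewhere. Eif2s3x was among the 17 too, as was Eif2a, which is not the gene of an eIF2 subunit. Of the 5 subunits of eIF2B, the exchange factor that reloads eIF2 with GTP, Eif2b1, Eif2b2 and Eif2b5 were. Eif2b2 was at 55.0 ± 12.2 TPM in Mut muscle and 51.5 ± 6.71 in WT muscle, against group means of 18.0 to 28.5 TPM elsewhere. These were joined by the eIF3 subunits Eif3c, Eif3e, Eif3i, Eif3j1 and Eif3j2, part of the scaffold that holds the small ribosomal subunit.

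The scaffolds Eif4g1 and Eif4g3 and the subunit-joining GTPase Eif5b were also higher in muscle than elsewhere. Among elongation factors this held for Eef1a2 and for Eef1g, a subunit of the eEF1A exchange complex, which was at 264 ± 26.3 TPM in Mut muscle and 253 ± 17.1 in WT muscle (SD, n = 4) and at 91.4 to 115 TPM as group means elsewhere. The last was Eef2k, the kinase that phosphorylates eEF2 and slows elongation. Eef2k was at 31.4 ± 7.45 TPM in Mut muscle and 32.4 ± 4.42 in WT muscle, at 12.3 ± 1.91 in Mut heart and 14.5 ± 3.75 in WT heart, and at 3.55 to 5.01 TPM as group means in BAT and liver. Its target Eef2 was at 372 to 655 TPM in all groups. Eef1a1 and Eif2ak3 were lower in WT muscle than in each other tissue (2 members, background 10.2%).

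By the same rule, 3 members were higher in WT liver than in each other tissue, Eef1a1, Eefsec and Eif4ebp3 (background 15.7%), and 3 were lower, Eif4e3, Eif3k and Eef1akmt1 (background 18.2%). Eefsec, the elongation factor for selenocysteine, was at 20.7 ± 2.28 TPM in Mut liver and 18.7 ± 2.16 in WT liver (SD, n = 4), against 1.72 to 3.52 TPM as group means elsewhere. Eif4ebp3, an eIF4E inhibitor, was at 38.4 ± 9.11 TPM in Mut liver and 100.7 ± 47.0 in WT liver, and at 0.854 to 2.04 TPM as group means elsewhere. Those levels are 0.848% to 2.03% of WT liver, where hepatocyte markers outside the liver were at 0.975% to 1.34%. Their part in the low Eif4ebp3 readings was not tested.

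In WT BAT 6 members were higher than in each other tissue, namely Eif4ebp1, Eif3l, Eif4e3, Eif2ak3, Eef1akmt2 and Eef2kmt (background 11.9%). Eif4ebp1, the best studied eIF4E inhibitor and a target of mTOR, was at 128 ± 18.5 TPM in Mut BAT and 126 ± 12.8 in WT BAT (SD, n = 4), against 27.4 to 35.4 TPM as group means elsewhere. Eif3l was at 104 ± 0.608 TPM in Mut BAT and 105 ± 9.53 in WT BAT, against 32.2 to 56.2 TPM elsewhere. Eef1akmt2 and Eef2kmt add methyl groups to lysines of eEF1A and of eEF2. Eif4b, which stimulates the eIF4A helicase, was lower in WT BAT than in each other tissue (1 member, background 2.61%). WT heart held no member that was higher than in each other tissue (background 7.59%) and 5 that were lower (background 2.17%), the eIF2 kinase Eif2ak1, Eif3j2, Eif4ebp2, Eif5 and Eif6.

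Over the 4 WT tissues the range of the tissue means had a median of 0.95 over the 65 members, against 1.38 over 12710 genes tested, on log2(TPM + 1). The ranges were widest for Eif4ebp3 (5.67), Eef1a2 (5.33), Eef1a1 (3.54), Eef2k (2.88), Eefsec (2.78) and Eif4e3 (2.76). They were narrowest, among members averaging at least 10 TPM, for Eif4g2 (0.35), Eif3a (0.38), Eif3k (0.42) and Eif2s3y (0.42). All ranges given here, also by role, were taken in TPM alone. The other scalings were not tried on them, so the order of ranges holds for TPM only. Eif4g2, a scaffold relative that does not bind eIF4E, was at 184 to 232 TPM in Mut and 178 to 225 TPM in WT as tissue means. By role, the median range was 2.06 for the eIF4E inhibitors, 1.56 for the modifying enzymes and 1.21 for the elongation factors, and lowest for the eIF1 group at 0.52. It was 0.82 for eIF3 and 0.74 for eIF2B.

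Of the most abundant members of their roles, Eif1 (range 0.44) and Eif5a (0.84) lay below the median range of 0.95 over members. Eif5 (1.32), Eif2ak1 (1.18) and Eef1akmt1 (1.98) lay above it. Eif1, which helps to select the start codon, was at 295 to 453 TPM in Mut and 331 to 449 TPM in WT as tissue means. In TPM it was lowest in heart and highest in muscle in both genotypes. Eif5a, which helps the ribosome through difficult stretches such as runs of proline, was at 298 ± 14.1 TPM in Mut liver and 313 ± 39.9 in WT liver and at 159 ± 26.0 TPM in Mut heart and 173 ± 8.45 in WT heart (SD, n = 4). For WT liver minus WT heart, neither Eif1 nor Eif5a was called in the same direction under all 3 scalings. Eif5, which makes eIF2 hydrolyse its GTP, was at 41.6 ± 1.55 TPM in Mut heart and 41.9 ± 5.04 in WT heart, against 86.0 to 114 TPM as group means elsewhere. Eif2ak1, the haem-regulated eIF2 kinase, was at 6.94 ± 0.842 TPM in Mut heart and 7.54 ± 0.902 in WT heart, against 9.66 to 19.1 TPM elsewhere. Eef1akmt1, a lysine methyltransferase for eEF1A, was at 8.82 ± 0.743 TPM in Mut liver and 6.52 ± 1.5 in WT liver, against 17.2 to 32.2 TPM elsewhere.

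**Figure D3:**
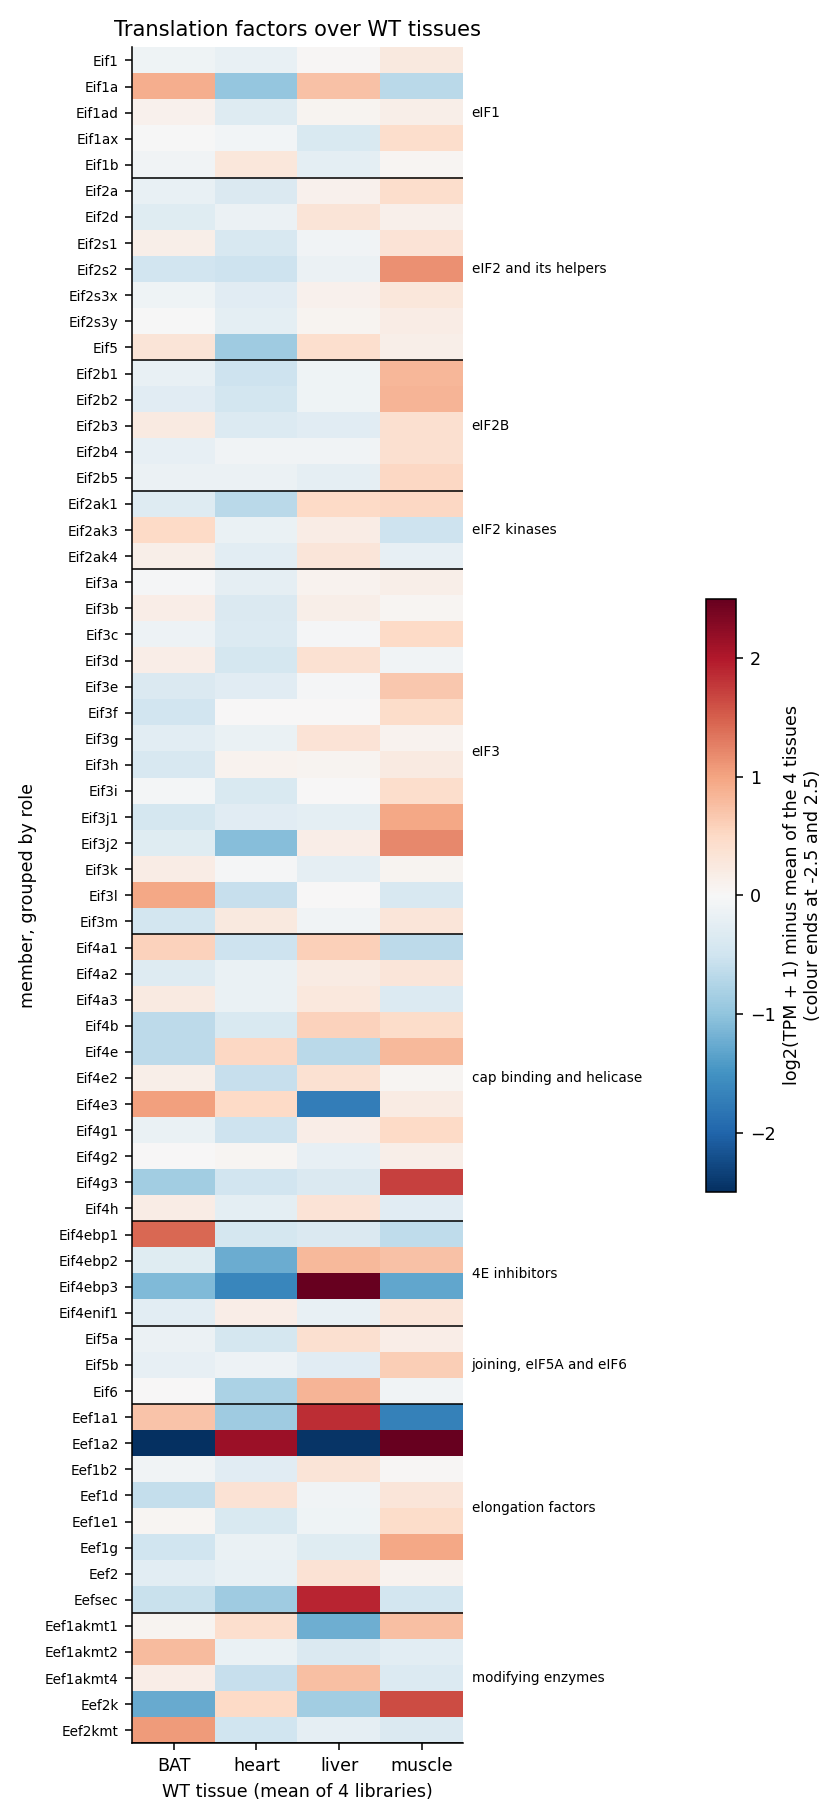
WT tissue mean of each tested member on log2(TPM + 1), as the difference from the mean of the 4 WT tissues, with members grouped by role; colours end at ±2.5. Eef1a2, Eef2k and Eif4g3 stand out in muscle, Eefsec and Eif4ebp3 in liver, and Eif4ebp1 and Eif3l in BAT.

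Most members used the same leading transcript everywhere, as 56 of 65 had 1 most abundant transcript in all 4 tissues. Eef1d, an exchange subunit for eEF1A, was among the other 9. Its transcript Eef1d-213 made up 53.6% ± 3.14 of Eef1d TPM in Mut muscle and 52.7% ± 0.849 in WT muscle, and 44.0% ± 1.5 in Mut heart and 43.6% ± 1.44 in WT heart (SD, n = 4). In BAT it made up 25.7% ± 3.52 in Mut and 25.5% ± 2.43 in WT, and in liver 24.2% ± 2.62 in Mut and 19.5% ± 2.97 in WT. Muscle and heart thus stood apart from liver and BAT in both genotypes. Transcripts of 1 gene share most of their sequence, so these shares rest on how Salmon divided reads between them. The TPM of a gene also counts transcripts that are not annotated as coding, and for 7 of the 65 members (Eef1b2, Eef1e1, Eif1ax, Eif2b2, Eif4a2, Eif4g1 and Eif5b) coding transcripts held less of it than the others together in at least 1 tissue. The leading Eef1b2 transcript is annotated to nonsense-mediated decay, and coding ones held 37.9% to 41.1% of its TPM. Coding transcripts held 69.4% of Eif4a2 TPM in muscle and 40.3% to 54.8% in the other tissues, and 47.3% of Eif4g1 TPM in BAT and 66.5% to 74.1% elsewhere. Levels and pair shares of these genes are therefore of all their RNA, not of the coding RNA alone.

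Few members passed the threshold between Mut and WT in any tissue. With limma and an adjusted p under 0.05, 0 of 65 members were called in BAT (background 0%), 0 in heart (background 0.15%), 1 in liver (background 4.16%) and 0 in muscle (background 0.0085%). At an unadjusted p under 0.05 the members numbered 9 in BAT (background 19.5%), 7 in heart (11.6%), 13 in liver (25.9%) and 3 in muscle (7.76%). The median log2 fold change over members, Mut over WT, was 0.10 in BAT, -0.14 in heart, 0.04 in liver and 0.06 in muscle, beside 0.09, -0.11, 0.10 and 0.05 over all genes. Members above 0 numbered 48 in BAT, 8 in heart, 38 in liver and 55 in muscle, where 72.7%, 19.3%, 69% and 67% of all genes lay above 0. Under median-ratio scaling these counts were 28, 25, 17 and 29, and that scaling moved the median of all genes to -0.02 in BAT, 0.00 in heart, -0.02 in liver and -0.01 in muscle. The sign of most members in a tissue therefore depends on the scaling.

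**Figure D4:**
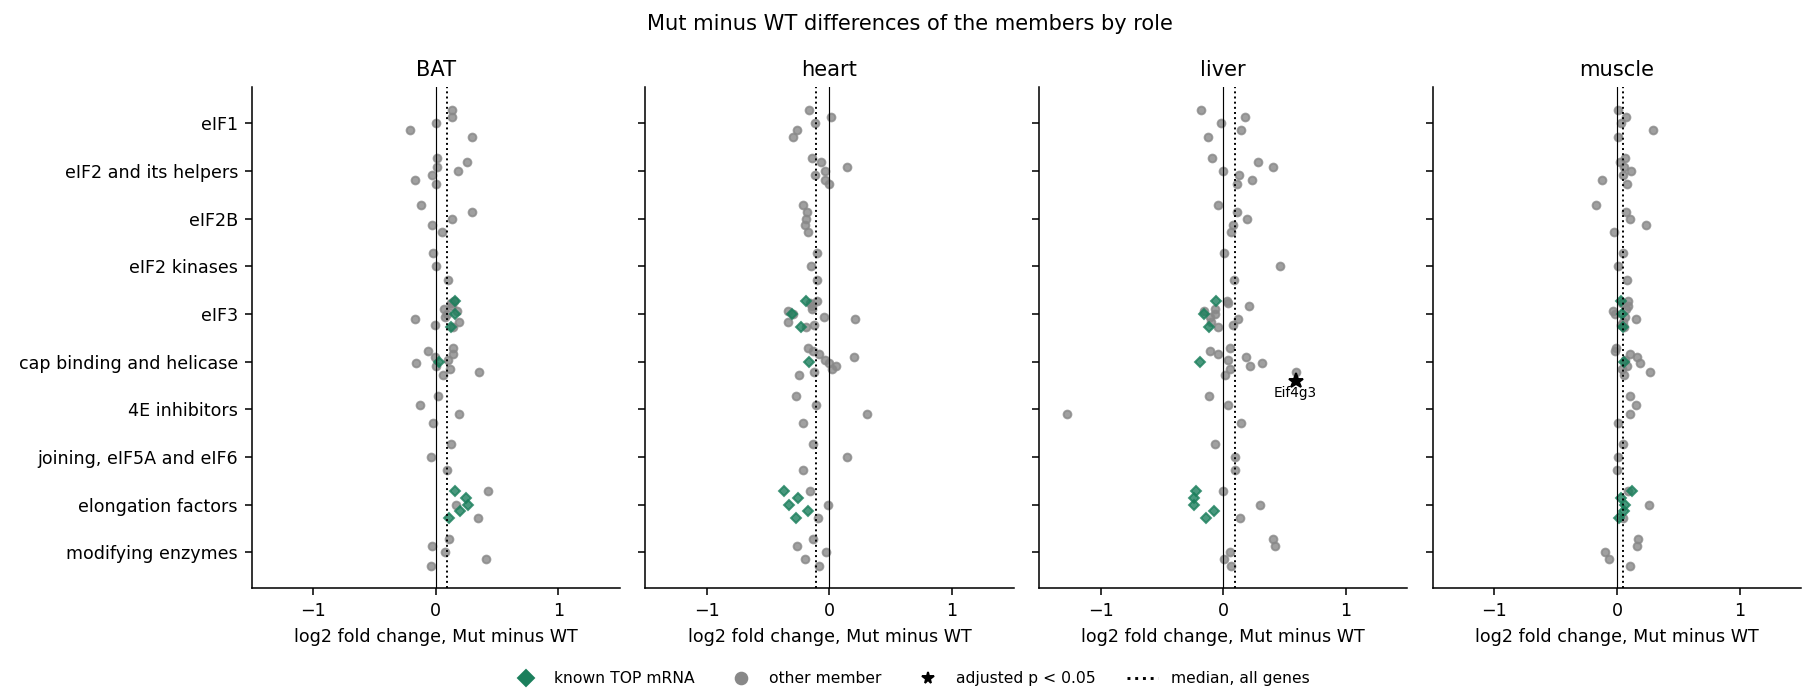
Log2 fold change (Mut over WT, log2(TPM + 1)) of each tested member in each tissue, by role; diamonds are mRNAs known to carry a 5′ terminal oligopyrimidine tract, the dotted line is the median of all genes and a star marks an adjusted p under 0.05. Most points lie near the dotted line, and Eif4g3 and Eif4ebp3 in liver lie farthest from it.

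The member called in liver was Eif4g3 (chromosome 4, 137993022 to 138208508). It was at 16.1, 11.7, 11.1 and 12.7 TPM in the 4 Mut livers and at 7.69, 9.92, 7.69 and 7.57 TPM in the 4 WT livers. All Mut livers lay above all WT livers. It rose by a log2 fold change of 0.59 (SE 0.13, limma adjusted p = 0.0385). In BAT it was at 6.76, 7.09, 7.67 and 7.29 TPM in Mut and at 4.36, 4.89, 7.83 and 5.07 TPM in WT, in muscle at 38.7, 60.6, 45.2 and 38.7 TPM in Mut and at 34.9, 36.8, 38.1 and 39.5 TPM in WT. In heart it was at 5.56, 6.67, 8.22 and 6.82 TPM in Mut and at 6.66, 7.50, 6.49 and 9.46 TPM in WT. The genotypes overlapped in BAT, muscle and heart. As a share of Eif4g1 plus Eif4g3, which no scaling changes, it did not overlap in 3 tissues, at 6.05% to 6.97% in Mut BAT and 4.19% to 5.72% in WT BAT, 6.79% to 9.07% in Mut liver and 5.2% to 6.39% in WT liver, and 18.5% to 22.5% in Mut muscle and 17.6% to 18.2% in WT muscle. In heart the share went the other way with overlap, at 7.25% ± 1.04 in Mut and 8.21% ± 1.01 in WT (SD, n = 4). The Eif4g3 share was not tested between genotypes, and no background over other pairs of genes was taken. Eif4g1 was itself higher without overlap in Mut liver (log2 0.22).

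Eif4g3 was also the 1 member called for the mean of the 4 tissue effects (background 4.08%), at 0.27 (SE 0.07, limma adjusted p = 0.0328). The liver call did not hold under other scalings, with an adjusted p of 0.0643 under median-ratio scaling and 0.0531 after rescaling. It was lost without Mut replicate 1 (0.0932), 2 (0.0733) or 4 (0.0698) and without WT replicate 1 (0.0727), 3 (0.104) or 4 (0.0760). The mean effect was lost on leaving out any of 8 libraries, with an adjusted p of 0.0645 without BAT WT 1, 0.0590 without BAT WT 2, 0.0557 without heart Mut 3 and 0.0538 without heart WT 1. It was 0.0565 without heart WT 3, 0.0598 without liver Mut 1, 0.0514 without liver WT 3 and 0.0536 without muscle Mut 2. The log2 mean effect stayed between 0.24 and 0.31 over all libraries left out, and the call held under both other scalings. Macrophage markers averaged 51.2 TPM in Mut BAT and 22.6 TPM in WT BAT, and 29.5 TPM in Mut liver and 12.8 TPM in WT liver. The WT BAT mean rests on WT replicate 3 (49.2 TPM), as the other WT BAT libraries were at 6.58 to 23.7 TPM. In liver the genotypes overlapped. Mut liver replicate 4 was at 55.7 TPM, the other Mut livers at 17.9 to 24.0 TPM and WT livers at 7.14 to 23.9 TPM. In muscle, macrophage markers were at 10.2 to 12.3 TPM in Mut and 6.26 to 8.33 TPM in WT. Fibroblast markers did not overlap in muscle, at 314 to 374 TPM in Mut and 257 to 298 TPM in WT, or in BAT, at 146 to 211 TPM in Mut and 94.3 to 126 TPM in WT. The part of these cells in the differences was not tested.

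In liver 11 members did not overlap between the genotypes, 8 higher and 3 lower in Mut, where 14.3% of all genes were higher and 2.12% lower without overlap. Eif4ebp3 was at 34.0, 46.7, 27.7 and 45.2 TPM in Mut and at 47.7, 84.9, 110.6 and 159.7 TPM in WT. Every Mut liver lay below every WT liver, and the WT livers spread widely. Its log2 fold change was -1.27 (SE 0.32, limma adjusted p = 0.0567). Eif2ak3, the eIF2 kinase PERK that senses stress in the endoplasmic reticulum, was at 5.47, 4.51, 4.07 and 4.59 TPM in Mut and at 2.92, 3.58, 2.55 and 3.42 TPM in WT, without overlap, with a log2 fold change of 0.46 (SE 0.11, adjusted p = 0.0545). Neither passed the threshold. Under median-ratio scaling Eif4ebp3 (-1.40, adjusted p = 0.0476), Eef1b2 (-0.37, adjusted p = 0.0457) and Eif4b were called lower and Eif4g3 was not called.

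Of the other liver members without overlap, Eef1akmt2 was at 9.53, 7.60, 8.19 and 7.60 TPM in Mut and at 4.61, 6.23, 5.87 and 6.99 TPM in WT (log2 0.42, SE 0.12, limma adjusted p = 0.0753). Eif2d, a tRNA-binding factor of initiation and recycling, was at 22.9, 23.4, 22.4 and 21.9 TPM in Mut and at 17.5, 20.2, 18.5 and 17.4 TPM in WT (log2 0.29, SE 0.07, adjusted p = 0.0568). Both were higher in every Mut library. Eif2s1, Eif2s3y, Eif3c and Eif4g1 were higher without overlap too, and Eef1b2 and Eif3f lower.

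In BAT 6 members were higher in Mut without overlap and none was lower (background 7.75% higher and 1.65% lower). Eef2k was at 5.25, 5.25, 4.48 and 5.05 TPM in Mut and at 3.61, 4.32, 2.84 and 3.42 TPM in WT, a log2 fold change of 0.41 (SE 0.11, limma adjusted p = 0.135). Eef1b2, Eef1d, Eif2d, Eif3e and Eif2ak4 were the others. In heart 5 members were lower in Mut without overlap and none was higher (background 7.21% lower and 0.324% higher), namely Eef1a1 (log2 -0.37, SE 0.14, adjusted p = 0.397), Eef1b2, Eif3g, Eif3h and Eif3k. In muscle Eif1ax, a start-codon scanning factor, was at 52.2, 65.5, 57.0 and 55.8 TPM in Mut and at 48.4, 38.6, 50.0 and 50.8 TPM in WT, with a log2 fold change of 0.29 (adjusted p = 0.577). With Eef1a1 it was the second of 2 members higher without overlap, and none was lower (background 3.83% and 0.663%). Eif2b4 was at 30.4, 33.5, 30.5 and 32.9 TPM in Mut muscle and at 26.6, 27.0, 23.4 and 30.6 TPM in WT muscle (log2 0.24, adjusted p = 0.577). Eif2b1 was at 35.8, 32.6, 39.1 and 35.9 TPM in Mut muscle and at 41.5, 38.8, 39.0 and 42.9 TPM in WT muscle (log2 -0.17, adjusted p = 0.637). Both overlapped between the genotypes. None of these passed the threshold, and slow fibre markers in muscle were at 578, 25.9, 9.12 and 164 TPM in the 4 Mut libraries and at 381 to 575 TPM in WT.

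The Mut over WT difference itself differed between tissues for 6 of 65 members (tissue by genotype interaction, limma F test, background 5.87%). Eif4ebp3 (adjusted p = 0.00983) had log2 fold changes of -1.27 in liver, 0.19 in BAT, 0.30 in heart and 0.11 in muscle. Eif2ak3 (adjusted p = 0.0284) was at 0.46 in liver, 0.00 in BAT, -0.15 in heart and 0.01 in muscle, and Eef1akmt2 (adjusted p = 0.0334) at 0.42 in liver, -0.03 in BAT, -0.26 in heart and 0.16 in muscle. For these 3 the liver differed most from 0.

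The other 3 were Eef1a1 (adjusted p = 0.0311), Eef1b2 (adjusted p = 0.0314) and Eef1d (adjusted p = 0.0476), which belong to the eEF1 complex. Eef1b2, the nucleotide exchange subunit for eEF1A, was at 158, 149.8, 148 and 170.3 TPM in Mut BAT and at 123, 133, 140.3 and 130.5 TPM in WT BAT. In heart it was at 104, 76.9, 106 and 99.9 TPM in Mut and at 122, 112, 108 and 117 TPM in WT. In liver it was at 144, 158, 132 and 161 TPM in Mut and at 163, 173, 192 and 173 TPM in WT. Mut libraries were thus all above WT in BAT and all below WT in heart and in liver. Its log2 fold changes were 0.25 in BAT, -0.26 in heart, -0.24 in liver and 0.03 in muscle, those of Eef1a1 0.16, -0.37, -0.22 and 0.12, and those of Eef1d 0.26, -0.33, -0.24 and 0.06, in the same order of tissues. All 3 kept these signs in BAT, heart and liver under both other scalings, at sizes between 0.03 and 0.37. In heart, atrial markers and Eef1a1 were both highest in WT replicate 4, and the part of atrial tissue in this difference was not tested.

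The interaction calls leaned on single libraries, and that of Eef1d most. It was kept in 7 of 32 fits that each left out 1 library, and it was lost with a pseudocount of 0.1, with no filter on low values and after rescaling. The other 5 were kept in 24 to 31 of the 32. Without WT liver 3, 1 call remained, Eif4ebp3, and without WT heart 2, WT heart 4 or Mut liver 1 there were 2. Without WT BAT 1 there were 3 and without WT BAT 3 there were 8. After rescaling there were 3, Eef1b2, Eif2ak3 and Eif4ebp3, and with no filter on low values 2, Eif2ak3 and Eif4ebp3. With a filter at 5 TPM there were 4, as Eif4ebp3 and Eif2ak3 then dropped out of the test. Eif4ebp3 averaged 1.28 TPM in Mut heart and 0.854 TPM in WT heart, near the filter of 1 TPM.

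**Figure D5:**
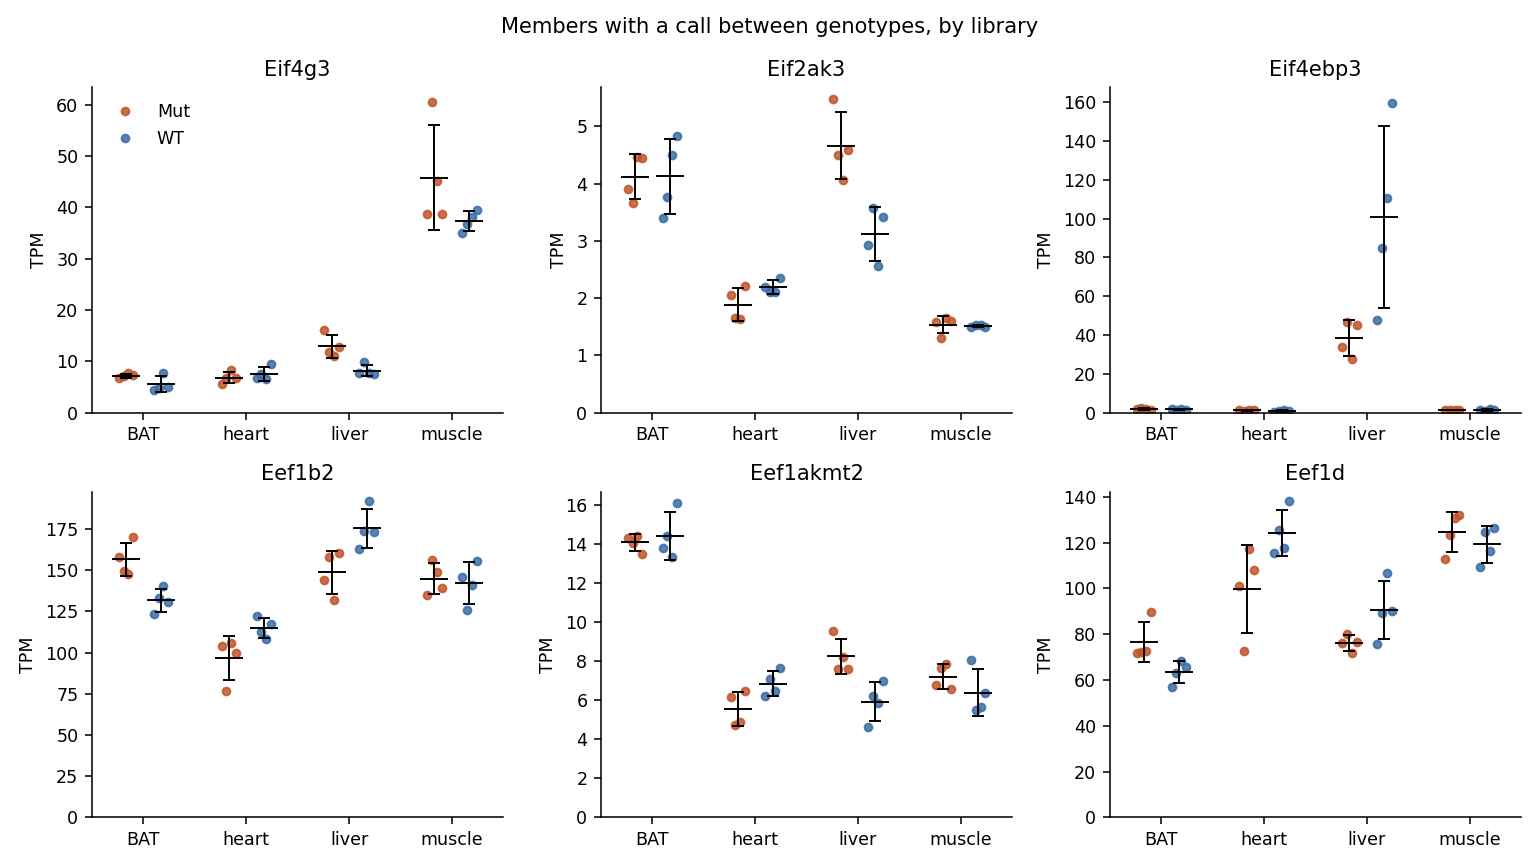
TPM per library of Eif4g3, Eif2ak3, Eif4ebp3, Eef1b2, Eef1akmt2 and Eef1d in each tissue, with Mut left of WT; points are libraries and bars are mean ± SD (n = 4). Eif4ebp3 is near 0 outside the liver, where the 4 Mut livers lie at 27.7 to 46.7 TPM and the 4 WT livers at 47.7 to 159.7 TPM.

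Eef1a1, Eef1b2, Eef1d, Eef1g, Eef2, Eif3e, Eif3f, Eif3h and Eif4b are known as TOP mRNAs, whose leader begins with a pyrimidine tract and whose translation follows mTOR. The 9 had a median log2 fold change of 0.16 in BAT, -0.26 in heart, -0.16 in liver and 0.05 in muscle, beside 0.09, -0.13, 0.06 and 0.06 for the other 56 members tested. In TPM all 9 lay above 0 in BAT and in muscle and below 0 in heart and in liver. Of all genes tested, 72.7% lay above 0 in BAT and 67% in muscle, and 80.7% lay below 0 in heart and 31% in liver. Under median-ratio scaling the medians of the 9 were 0.03, -0.12, -0.29 and -0.02, with 6 of 9 above 0 in BAT and 8 of 9 below 0 in muscle. Rescaled they were 0.09, -0.09, -0.15 and 0.01, with 8 of 9 below 0 in heart. None of the 9 passed the test of Mut against WT in any tissue in TPM. That all 9 lay below 0 in liver held under all 3 scalings, while in muscle the sign of most depended on the scaling. Under median-ratio scaling most of all members tested lay below 0 in liver too.

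By role, the 8 elongation factors had a median of 0.22 in BAT, -0.22 in heart, -0.11 in liver and 0.06 in muscle. The 14 eIF3 subunits were at 0.13, -0.17, -0.06 and 0.05, and the 5 eIF2B subunits at 0.05, -0.19, 0.08 and 0.07. In TPM, with each tissue fitted alone, none of these members was called within a tissue. Under median-ratio scaling Eef1b2 was called lower in Mut liver, and 1 fit over all 32 libraries called Eef1a2 in BAT and Eef1a1 in heart.

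Among 36 other genes of translation (termination and recycling, poly(A) binding and scanning, signalling to translation, eIF5A hypusination and mitochondrial factors), limma called none for Mut against WT in BAT, heart or muscle and 2 in liver, where 4.16% of all genes tested were called. Both were higher in Mut liver, Dhx29, a helicase that helps scanning through structured leaders (log2 0.58, SE 0.12, adjusted p = 0.0321), and Gfm1, a mitochondrial elongation factor (log2 0.51, SE 0.12, adjusted p = 0.0459). The median over the 36 was 0.03 in BAT, -0.07 in heart, 0.11 in liver and 0.01 in muscle. The interaction was called for 3 of them, where 5.87% of all genes tested were called, namely Dhx29 (adjusted p = 0.0233), Gfm1 (adjusted p = 0.0285) and Mtor (adjusted p = 0.0472). Mtor, the kinase that acts on the eIF4E inhibitors, had log2 fold changes of -0.23 in BAT, 0.37 in heart, 0.40 in liver and -0.12 in muscle, none of them past the threshold.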

How the data were processed

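The deposited table gives TPM for each transcript, which the authors made with Salmon, per the submitters' processing notes. The Salmon version, transcriptome and genome used were not given in the sources used here. Of 147493 transcripts, 136081 (92.3%) matched GENCODE M21 without version numbers and were summed per gene. The 11412 unmatched ones took 0.451% to 0.896% of each library's TPM.

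Groups and replicate numbers came from the sample titles. The members and lists were chosen with earlier results of these data known. Genes averaging at least 1 TPM were tested with limma 3.58.1 (R 4.3.3, mean-variance trend) on log2(TPM + 1), two-sided, with Benjamini-Hochberg adjustment over all genes, and called at an adjusted p under 0.05. The pseudocount of 1 understates fold changes of low genes. Each tissue was fitted alone for Mut minus WT, and the 16 WT libraries together for tissue differences. All 32, taken as independent, were fitted for the interaction and the mean effect. The Eef1a2 share was tested by exact permutation over 70 assignments (SciPy 1.17.1). The fit was tested on simulated data.

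Named were the Eef1a pair, members called in a comparison with genotype or else the 3 of smallest p, the 6 widest and 4 narrowest WT ranges, and the highest member of each role. Others described by tissue were chosen after their values were seen. Alternatives were a pseudocount of 0.1, no filter or 5 TPM, 2 other scalings, no trend, a replicate block, other libraries in the fit, a threshold of 0.1, and each library left out. The replicate numbers are not stated to mark the same mouse across tissues or genotypes. RefSeq promoters matched 52 of the 68 members.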

Additional observations from a re-analysis of the deposited data

Results flagged for a closer look

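Values far from the other 3 libraries of their group appeared in 12 of 231 groups of 4 tested over 29 members, and chance gives about 1 in 20. In Mut groups these were Eef1d in BAT replicate 4 (89.9 TPM), Eif2d in BAT replicate 1 (13.3 TPM), Eif3h in heart replicate 2 (71.7 TPM), Eif4g2 in heart replicate 2 (238 TPM), Eif2b2 in liver replicate 4 (24.1 TPM), Eif3k in liver replicate 4 (56.0 TPM) and Eif2s3y in muscle replicate 4 (40.2 TPM). In WT groups they were Eif4a2 and Eif4e3 in BAT replicate 1 (209 and 30.0 TPM), Eif4a2 in liver replicate 3 (269.99 TPM), Eif4g3 in liver replicate 2 (9.92 TPM) and Eef1a2 in muscle replicate 3 (648 TPM). Mut heart 2 also had the largest mitochondrial share of any library, 54.5% of its TPM.

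The Mut over WT difference differed between tissues, by limma's interaction test, for Eif4ebp3 (adjusted p = 0.00983), Eif2ak3 (0.0284), Eef1a1 (0.0311), Eef1b2 (0.0314), Eef1akmt2 (0.0334) and Eef1d (0.0476).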

How the results depend on the processing

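The count of members called in liver (1) was 0 with no filter on low values, 0 rescaled (without mitochondrial RNA and the 10 genes of highest TPM), 3 under median-ratio scaling, 7 at an adjusted p under 0.1, 5 in 1 fit over all 32 libraries, and 0 to 1 with each library left out. In BAT (0) it was 1 in the fit over all libraries, Eef1a2, and 0 to 1 with each library left out, and in heart (0) it was 1 in that fit, Eef1a1. The interaction count (6) was 2 with no filter, 4 with a filter at 5 TPM, 3 rescaled, and 1 to 8 with each library left out. The mean effect (1) was 0 with no filter, 9 under median-ratio scaling, of which 8 were lower in Mut, 2 rescaled, and 0 to 2 with each library left out. Eef1a2 changed sign for Mut minus WT in heart rescaled (0.0071), in liver rescaled (0.0063) and in liver with each library left out (-0.073 to 0.034). It also did so for WT liver minus WT BAT rescaled (-0.61) and in the Mut libraries (-0.38). The Eef1a2 share, Mut minus WT in muscle, ran from -1.04 to 0.470 percentage points with each library left out. Over all alternatives, 960 values kept direction and call, 33 moved, 19 lost a call, 3 gained one and 11 reversed. A count of calls within 1.5 times was taken as kept even where its split into higher and lower changed. The causes were not tested.

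With a replicate block the liver count was 0, as Eif4g3 then had an adjusted p of 0.0761, and no other count of calls moved by over 1.5 times. In 0 of 16 pairs of groups did every same-numbered pair of libraries correlate above 0.1 in its deviations (range -0.277 to 0.232). Between tissues of 1 genotype, 0 (BAT with muscle in WT) to 4 (heart with muscle in Mut) of the 4 libraries correlated best with their own number. Between genotypes of 1 tissue it was 0 to 2. This check does not settle whether tissues share mice. The interaction and mean-effect fits took all 32 libraries as independent, and their p-values assume that. Depth is unknown, which limits what can be said of members near 1 TPM.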
